A study of Mus musculus with 3 samples.

Results

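Oxidative phosphorylation is the part of metabolism in which mitochondria pass electrons from NADH and succinate to oxygen and use the released energy to make ATP. The nuclear genes that encode its subunits were followed here in total RNA of mouse blood monocytes. Members were taken by gene symbol: Cycs, Cyc1, every symbol beginning with Nduf, Uqcr, Atp5 or Cox with a number from 4 to 8, and the symbols Sdha, Sdhb, Sdhc and Sdhd, provided that the annotation gives the gene at least 1 protein-coding transcript. This gave 96 genes of the 55536 listed, and of the 22028 listed protein-coding genes. Another 13 genes matched by symbol but had no protein-coding transcript. Atp5o is listed as 2 gene entries, so both are counted.

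The study profiled 1 group of primary cells, blood monocytes of adult mice of strain C57BL/6J at 5 to 6 weeks of age, with no genetic change or treatment given in the labels. It holds 3 libraries, numbered as biological replicates 1, 2 and 3, each made from 100 ng of RNA after removal of ribosomal RNA. The labels do not say whether the 3 came from separate animals or from pools, so p-values measure spread between libraries alone, and that spread may be technical. There is no second condition, so each gene was set against fixed levels, against its isoforms, and between libraries. Where 3 values follow each other they belong to libraries 1, 2 and 3 in that order.

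The respiratory chain consists of complex I, which oxidises NADH, complex II, which oxidises succinate, complex III, which reduces cytochrome c, and complex IV, which passes the electrons to oxygen. Complexes I, III and IV pump protons across the inner membrane, and complex V, the ATP synthase, lets them back through a rotor that drives ATP synthesis. Most subunits are encoded in the nucleus and a small core in mitochondrial DNA. Circulating monocytes use both this pathway and glycolysis, and shift between them on activation.

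The deposited gene tables give expected counts, which are read counts shared out among genes with similar sequence, and TPM, which are scaled by transcript length and library total. The tables held 27158600, 26541400 and 19917900 expected counts, to 6 digits. Protein-coding genes held a small part of the TPM total, and 1 TPM would be 9.16, 10.2 and 9.34 TPM if protein-coding genes alone made up the total. For a transcript with an effective length of 1000 bases, 1 TPM stood for 112, 121 and 76.0 counts. Of 10 monocyte markers 9 passed the test for a level above 1 TPM, so markers of the labelled cell type were present. Their summed levels of 2450, 2061 and 1550 TPM were mostly Lyz2 and Ctss, while their geometric means were 48.4, 47.2 and 49.0 TPM. Library 3 stood apart in markers of other cells. Summed NK cell markers (7 of 7 above 1 TPM) were at 646, 541 and 1532 TPM, and erythroid markers (5 of 8 above 1 TPM, Klf1 at 0) at 3535, 3328 and 263 TPM. Neutrophil markers (2 of 7, Ly6g at 0) were at 141, 126 and 9.44 TPM, of which Retnlg made up 124, 114 and 0 TPM, while Csf3r was at 5.99, 6.64 and 8.09 TPM. Platelet markers (4 of 6) were at 15.3, 10.97 and 95.6 TPM. B cell markers (5 of 5) were at 90.6, 90.2 and 80.7 TPM, T cell markers (2 of 7) at 4.82, 5.50 and 8.10 TPM, and basophil and eosinophil markers (3 of 6, Epx at 0) at 23.1, 23.8 and 4.14 TPM. In such bulk samples, fewer cells of a type and less RNA per cell cannot be told apart. The levels of members given below are likewise those of all cells in a sample. The part of cells other than monocytes in them was not tested.

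Respiratory genes were widely expressed. Of the 96 members, 88 had enough counts to be tested (a summed count of 10 or more), and 77 of these 88 (87.5%) were above 1 TPM by edgeR's quasi-likelihood test at an adjusted p under 0.05. The same call was made for 54% of the 12994 protein-coding genes tested. None of the 88 tested members was called below 1 TPM, against 6.03% of protein-coding genes, but the 8 that were not tested had too few counts to enter, 7 of them with 0 counts in every library. Over all 96, 12 members had a mean under 1 TPM. By the same test 0 of the 88 were lower than 1 TPM at an unadjusted p under 0.05, DESeq2 also gave 0, and limma gave 1, Cox6a2. Against 10 TPM, 32 members (36.4%) were above the level, where 11.1% of protein-coding genes were, and 22 were below it, where 68.4% were. On a TPM scale of protein-coding genes alone 77 members were above 10 TPM, where 53.5% of protein-coding genes were, and in the tables made from the reads 52 were, where 17.7% were. The median of mean TPM was 10.6 over the tested members and 2.09 over the tested protein-coding genes. Summed over all 96, the members held 1496, 1304 and 1275 TPM. This was 1.37%, 1.33% and 1.19% of all protein-coding TPM (1.30% ± 0.0937, SD, n = 3), from 0.436% of the listed protein-coding genes. The listed genes include those with too few counts to be tested. In expected counts, which are not scaled by transcript length, the share was 0.493% ± 0.0703 (SD, n = 3).

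**Figure D1:**
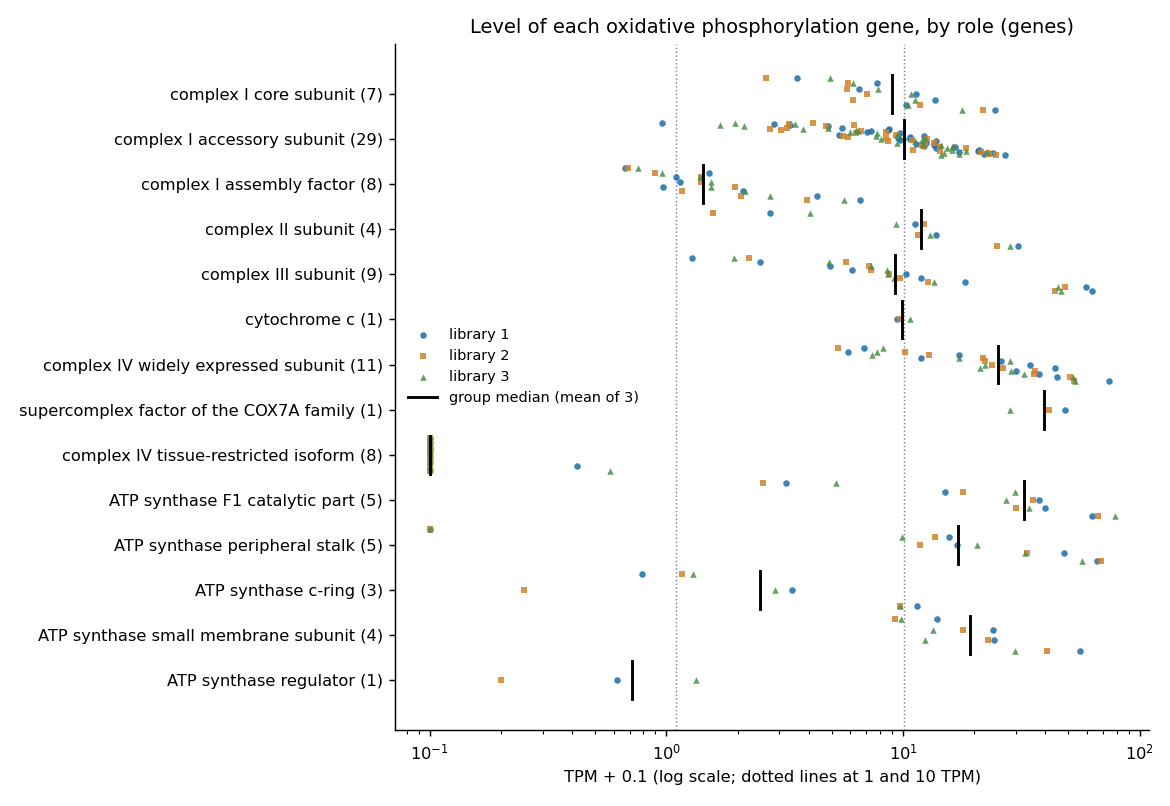
Each point is the level of 1 gene in 1 library, as TPM plus 0.1 on a log scale, with genes grouped by role down the page and the number of genes in brackets. Circles, squares and triangles mark libraries 1, 2 and 3, thick bars the mean over 3 libraries of the group median, and dotted lines 1 and 10 TPM. The medians of widely expressed complex IV subunits (25.2 TPM) and of the F1 part of ATP synthase (32.4 TPM) lie to the right of those of complexes I, II and III, and the tissue-restricted complex IV isoforms sit at or near 0.

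Promoters were read from RefSeq (assembly GRCm38.p6), 250 bases before to 50 bases after each annotated start, and were matched by symbol for 77 of the 96 members in 82 windows. Sequences for 4 members are printed because they carry the matches described next. They include the member with the highest mean TPM, a complex I subunit with matches to 2 motifs, and a complex III subunit with matches to another 2. The last is cytochrome c, in whose rat counterpart NRF1 was first described. Each is given 5′ to 3′ on the strand of its gene. Capitals mark matches to NRF1, ETS or YY1 motifs.
Atp5b, chr10:128083057-128083356, plus strand, a YY1 match: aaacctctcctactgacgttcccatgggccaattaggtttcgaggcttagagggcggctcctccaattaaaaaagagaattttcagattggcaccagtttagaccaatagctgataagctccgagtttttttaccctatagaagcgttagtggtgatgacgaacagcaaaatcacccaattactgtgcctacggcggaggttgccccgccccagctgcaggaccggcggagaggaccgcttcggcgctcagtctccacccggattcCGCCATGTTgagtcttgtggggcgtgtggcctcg
Ndufs6, chr13:73328433-73328732, minus strand, an NRF1 match and then a YY1 match: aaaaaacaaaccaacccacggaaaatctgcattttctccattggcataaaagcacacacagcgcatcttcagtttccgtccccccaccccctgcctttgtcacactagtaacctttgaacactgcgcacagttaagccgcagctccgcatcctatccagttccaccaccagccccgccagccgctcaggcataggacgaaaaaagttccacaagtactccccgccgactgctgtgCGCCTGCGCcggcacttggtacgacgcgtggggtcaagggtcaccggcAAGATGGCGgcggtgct
Uqcr11, chr10:80406772-80407071, minus strand, an ETS match and then an NRF1 match: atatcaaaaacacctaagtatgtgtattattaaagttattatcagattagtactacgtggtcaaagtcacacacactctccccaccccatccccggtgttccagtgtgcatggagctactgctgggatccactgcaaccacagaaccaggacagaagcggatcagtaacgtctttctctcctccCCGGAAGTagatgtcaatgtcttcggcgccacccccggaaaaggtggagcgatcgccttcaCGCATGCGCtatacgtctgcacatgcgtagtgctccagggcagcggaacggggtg
Cycs, chr6:50566520-50566819, minus strand, an NRF1 match: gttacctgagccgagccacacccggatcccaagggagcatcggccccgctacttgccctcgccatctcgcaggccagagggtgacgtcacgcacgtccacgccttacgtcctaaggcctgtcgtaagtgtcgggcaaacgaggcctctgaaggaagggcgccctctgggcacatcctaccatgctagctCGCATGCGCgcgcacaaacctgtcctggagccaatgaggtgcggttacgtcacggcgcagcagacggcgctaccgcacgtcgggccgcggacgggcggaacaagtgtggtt

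These motifs were searched on both strands because NRF1, GABPA (an ETS factor) and YY1 are known regulators of respiratory genes. NF-Y, a general promoter factor, was added for comparison. The letters of the NRF1 motif, GCGCANGCG, were found in 24 of the 82 member windows (29.3%), belonging to 23 genes. They were found in 8.90% of 20150 protein-coding windows and in 6.25% of all 32851 windows. The YY1 letters, AANATGGCG, were found in 11 member windows (13.4%), against 3.27% of protein-coding windows and 2.38% of all windows. The ETS letters, CCGGAAGT, were in 5 member windows (6.10%), against 5.35% and 3.89%, and the NF-Y letters, CCAAT, in 36 (43.9%), against 37.8% and 37.4%. No matches of different motifs overlapped. The windows also differed in composition, with a median of 20 CpG in member windows and 14 in protein-coding windows, and a median GC content of 58.5% and 57%. A match describes letters in a window and was not tested as a binding site.

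Matches to NRF1 and YY1 lay at different places around the start. Of 38 NRF1 matches 21 lay within 50 bases of the start and 8 began after it, with a median first base 45.5 bases upstream. The NRF1 letters read nearly the same on both strands, and 7 sites matched on both and were counted for each. Ndufa5 has overlapping windows from different starts, and the same NRF1 site was counted in each, at -190 and -26 bases. Of 11 YY1 matches 9 lay within 50 bases and 8 began after the start, with a median first base 22 bases downstream, and 10 were on the strand of the gene. The exception was Atp5b, where the match was on the opposite strand and began 16 bases after the start. In 8 of the 11 (72.7%) the match lay over an annotated start codon, whose ATG is part of the YY1 letters in all of these but Atp5b, where they read on the other strand. In other protein-coding genes this was so for 191 of 677 matches (28.2%). The median of mean TPM was 10.2 in the 23 genes with an NRF1 match and 10.1 in the 54 without. It was 8.82 TPM in the 11 genes with a YY1 match and 10.2 in the 66 without. By role, 8 of 27 matched complex I accessory genes held the NRF1 letters, while none of the 5 matched complex I core genes did. Complex III had 2 of 5 and cytochrome c its only gene.

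**Figure D2:**
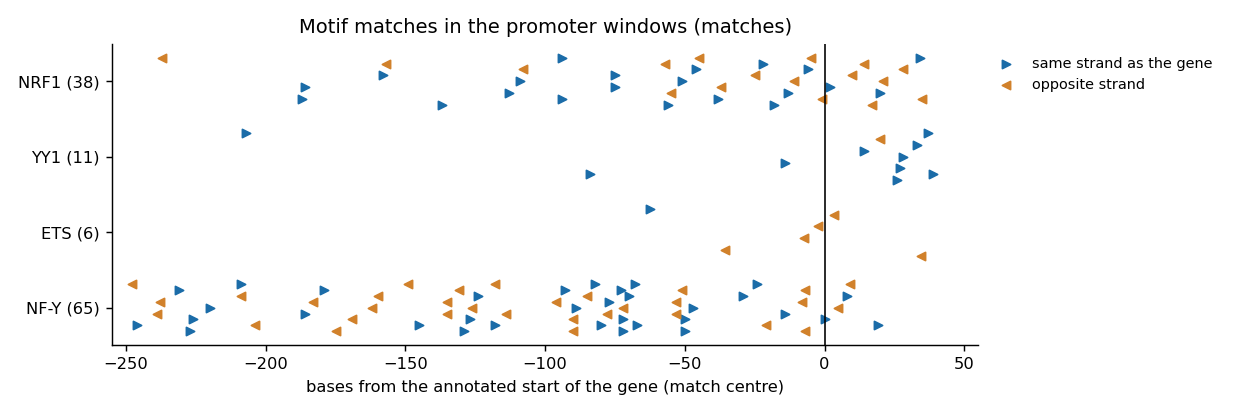
Each triangle is the centre of 1 motif match in the promoter window of a member, at its distance in bases from the annotated start (negative is upstream), with factors and their numbers of matches down the page and colour for the strand. Of the matches, 21 of 38 for NRF1 and 9 of 11 for YY1 fall within 50 bases of the start, and 8 of the YY1 matches lie after it.

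Complex I has the most members. Its 7 nuclear-encoded core subunits, which hold the flavin and the iron-sulfur clusters, were all above 1 TPM, and their median was 8.89 ± 2.48 TPM (SD, n = 3). Ndufs8, which carries iron-sulfur clusters in the arm that reaches into the matrix, was the lowest at 3.47, 2.55 and 4.82 TPM and was below 10 TPM. Ndufs7, which holds the last cluster before the quinone, had 6.44, 5.71 and 7.71 TPM. It was not called against 10 TPM (edgeR adjusted p = 0.0802) unless library 3 was left out (0.0469). Ndufv1, which binds the flavin and accepts electrons from NADH, had 11.3, 6.98 and 10.7 TPM. Ndufs1, which carries iron-sulfur clusters next to it, had 13.5, 6.03 and 11.2 TPM, lowest in library 2 like Ndufv1.

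The 29 accessory subunits of complex I, which surround the core, were all above 1 TPM, with a median of 9.98 ± 0.687 TPM (SD, n = 3). Against 10 TPM 8 were above and 6 below. Ndufa6, which anchors an acyl carrier protein to the complex, was the highest at 26.8, 24.7 and 14.4 TPM. Ndufb4, a membrane arm subunit, was the lowest at 0.86, 4.06 and 1.85 TPM. Its call above 1 TPM (adjusted p = 0.0332) rested on library 2, without which the adjusted p was 0.522. The steadiest member with 1 TPM or more was Ndufa7, at 11.2, 12.3 and 12.1 TPM, with a coefficient of variation of 4.62%.

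For several accessory subunits, leaving out 1 library changed the call against 10 TPM. Ndufs4, whose loss in mice causes a brain disease like Leigh syndrome, had 13.7, 18.3 and 15.2 TPM. It was above 10 TPM (adjusted p = 0.0136), but not without library 1 (0.0553) or library 2 (0.104). Ndufb7, Ndufb8 and Ndufb9, all in the membrane arm, were above 10 TPM only with library 1 in the fit. Ndufb7 had 20.6, 14.2 and 18.3 TPM, Ndufb8 20.9, 10.96 and 16.1 TPM, and Ndufb9 16.6, 14.2 and 16.0 TPM. Without library 1 their adjusted p were 0.0730, 0.267 and 0.120. Ndufa9, a subunit that binds NADPH, had 7.23, 6.54 and 6.35 TPM and was below 10 TPM (adjusted p = 0.0426), a call lost when any of the 3 was left out (0.0560 to 0.145). Ndufab1, the acyl carrier protein itself, had 3.22, 6.12 and 1.59 TPM, and its call below 10 TPM was lost without library 1 (0.0608). Ndufb3 had 5.45, 3.15 and 4.72 TPM and lost the same call without library 2 (0.0642). Ndufb2 had 8.63, 2.65 and 3.69 TPM and gained it without library 1 (0.0281). Library 1 was the highest of the 3 for Ndufb2 by more than 2-fold, and Ndufb2 was not called against 10 TPM with all 3 (0.0568).

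Assembly factors build complex I and leave it, and they were far lower than its subunits. The 8 Ndufaf genes had a median of 1.32 ± 0.112 TPM (SD, n = 3), 2 of them were above 1 TPM and all 8 were below 10 TPM. Ndufaf7, a methyltransferase, was the highest at 6.48, 3.82 and 5.51 TPM, and its call below 10 TPM was lost without library 2 (adjusted p = 0.0755). Ndufaf8 was the other above 1 TPM, at 4.23, 1.97 and 2.65 TPM, and not without library 1 (0.0817). Ndufaf6 was the lowest at 0.57, 0.59 and 0.66 TPM. The highest assembly factor by mean TPM was above 7 of the 36 subunits, so the groups overlapped.

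All 4 complex II genes were above 1 TPM, with a median of 11.8 ± 0.680 TPM (SD, n = 3). Sdha, the flavoprotein that oxidises succinate, was the highest at 30.4, 24.9 and 28.2 TPM. Sdhb, the iron-sulfur subunit, had 13.7, 11.4 and 12.9 TPM. Of the membrane anchors, Sdhd had 11.2, 12.1 and 9.27 TPM and Sdhc 2.63, 1.47 and 3.96 TPM. Sdhc was the lowest of the 4 in every library, and the highest gene was 10.4-fold above the lowest by mean TPM.

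Of 9 complex III genes 8 were above 1 TPM and 3 above 10 TPM, with a median of 9.11 ± 0.915 TPM (SD, n = 3). Uqcrb, a small subunit near the quinone site, had 63.0, 44.0 and 46.2 TPM, and Uqcrh, the hinge protein that helps cytochrome c dock, had 59.0, 48.4 and 45.1 TPM. These 2 stood well above the remaining 7. Uqcrc1, a core protein, came next at 18.2, 12.7 and 13.4 TPM, and its call above 10 TPM was lost without library 1 (adjusted p = 0.286). Cyc1, cytochrome c1, which hands electrons to cytochrome c, had 2.39, 5.66 and 4.79 TPM, lowest in library 1, and was below 10 TPM except without library 1 (0.0927). Uqcrq, a small subunit, was the lowest at 1.18, 2.14 and 1.83 TPM and was not called against 1 TPM. Cycs, cytochrome c, the electron carrier that also starts apoptosis when released, was at 9.38, 9.58 and 10.6 TPM. Its near-identical relatives were at 4.76, 11.3 and 8.16 TPM, and in the tables made from the reads Cycs was at 14.4, 15.8 and 22.2 TPM, so its small spread holds for the main tables.

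Complex IV was the electron transport complex with the highest median. Its 11 widely expressed subunits, Ndufa4 included, were all above 1 TPM and 8 were above 10 TPM, with a median of 25.2 ± 4.09 TPM (SD, n = 3). Cox6c was the highest at 74.0, 52.6 and 53.3 TPM. Cox6b1, which faces cytochrome c, had 44.5, 50.6 and 52.2 TPM, Cox4i1, the main regulatory subunit, 37.4, 35.8 and 32.4 TPM, and Cox8a 25.8, 22.1 and 28.2 TPM. Cox7b had 43.9, 26.3 and 21.03 TPM, highest in library 1. Ndufa4, once assigned to complex I, had 11.8, 21.7 and 17.1 TPM, and its call above 10 TPM was lost without library 2 (adjusted p = 0.138). Cox7a2 had 17.2, 12.8 and 7.27 TPM and was called above 10 TPM only without library 3 (0.0342). Cox6a1 was the lowest at 6.73, 5.21 and 8.14 TPM. Cox7a2l, a relative of Cox7a2 that joins complexes III and IV into supercomplexes and is shortened in C57BL/6 mice, was at 48.2, 41.2 and 28.1 TPM.

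The 8 tissue-restricted complex IV isoforms were nearly undetected. Cox4i2, Cox7a1, Cox7b2, Cox8b, Cox8c and Ndufa4l2 had 0 counts in all 3 libraries. Cox4i2 is known from lung and low oxygen, Ndufa4l2 from low oxygen, Cox7a1 and Cox8b from heart and skeletal muscle, and Cox7b2 and Cox8c from testis. Cox6a2, the muscle isoform, had 18 counts in library 1 (0.32 TPM) and 0 in the other two. Cox6b2, the testis isoform, had 9 counts in library 3 (0.48 TPM) and 0 in the other two. A count of 0 allows up to 3 counts per library for counting error, which for Cox4i2 in library 3 is 0.0726 TPM. The fold limits given next use that floor of 3 counts in each library. Cox4i2 was at least 447-fold lower than Cox4i1 in every library, Ndufa4l2 at least 252-fold lower than Ndufa4, Cox8c at least 194-fold lower than Cox8a, Cox7b2 at least 190-fold lower than Cox7b, Cox8b at least 125-fold lower than Cox8a, and Cox7a1 at least 46.7-fold lower than Cox7a2. Cox6b2 and Cox6b1 differed by -8.09 ± 1.39 and Cox6a2 and Cox6a1 by -5.37 ± 1.21 in log2(TPM + 0.1) (SD, n = 3).

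Isoform pairs were compared within each library, where TPM puts both genes on 1 scale. Of 12 pairs, 10 had the first gene lower in 3 of 3 libraries: the 8 restricted complex IV isoforms against their widely expressed counterparts, and Atp5g1 and Atp5g2 against Atp5g3. The level of Atp5g2 is uncertain because of a near-identical copy, described below. Cox7a2l was higher than Cox7a2 in 3 of 3 libraries, by 1.70 ± 0.23 (log2, SD, n = 3). Atp5g1 minus Atp5g2 was 0.35 ± 2.27, higher in 2 of 3 libraries (exact sign-flip p = 1). With 3 libraries the smallest 2-sided p of the exact sign-flip test is 0.25, which the other 11 pairs reached (0.273 adjusted over the 12 pairs), so no pair could pass 0.05.

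**Figure D3:**
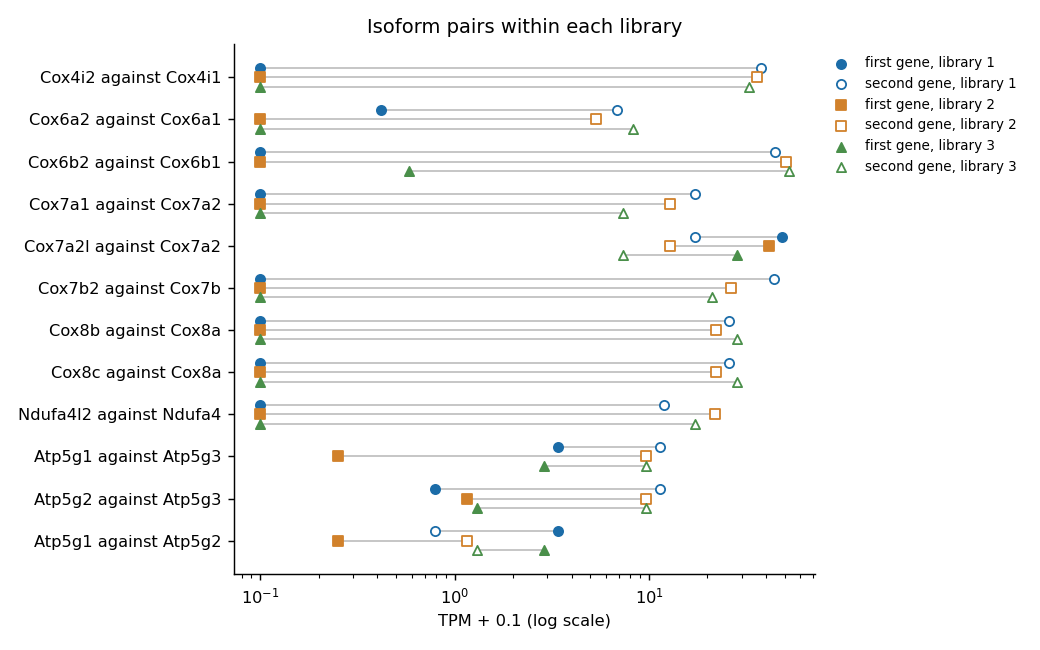
For each pair, filled symbols give the first gene and open symbols the second in the same library, as TPM plus 0.1 on a log scale, with circles, squares and triangles for libraries 1, 2 and 3. The filled symbol is left of the open one in every library for 10 of 12 pairs, right of it in every library for Cox7a2l against Cox7a2, and on either side for Atp5g1 against Atp5g2.

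ATP synthase spanned the widest range of the complexes, with complex IV taken as its 11 widely expressed subunits. Its 16 subunit genes, leaving out the second Atp5o entry, had a median of 18.4 ± 1.84 TPM (SD, n = 3) and a 70.6-fold range between highest and lowest mean. The lowest, Atp5g2, has an uncertain count because of a near-identical copy, and without it the range was 33.4-fold. The lowest gene was then Atp5g1, also of the c-ring, and complex III had a range of 29.7-fold. Outside the c-ring the lowest was Atp5d, at a mean of 3.56 TPM, so the widest range rested on c-ring genes. In the catalytic F1 part, Atp5b (ENSMUSG00000025393.12, chromosome 10, 128083273 to 128090391 on mm10, plus strand), whose promoter is printed above, encodes the catalytic beta subunit. By mean TPM it was the highest of all 96 members, at 63.1, 66.7 and 78.5 TPM, and ranked 219 among protein-coding genes. In library 1 Cox6c (74.0 TPM) and Atp5h (66.2 TPM) were higher, and in library 2 Atp5h (68.2 TPM). In the tables made from the reads Uqcrh and Atp5h had higher means, at 102 and 97.2 TPM against 89.9 TPM. Atp5a1, the alpha subunit, had 39.7, 29.9 and 34.0 TPM, and Atp5c1, the gamma shaft of the rotor, 37.4, 35.3 and 27.1 TPM. Atp5e, the epsilon subunit, had 15.0, 17.9 and 29.8 TPM, highest in library 3. Atp5d, the delta subunit, was the lowest at 3.10, 2.45 and 5.13 TPM and was below 10 TPM. Over all transcripts Atp5b averaged 69.4 ± 8.08 TPM and Atp5a1 34.5 ± 4.89 TPM (SD, n = 3), with no overlap. On protein-coding transcripts alone they overlapped, with Atp5b at 34.1, 29.0 and 29.1 TPM and Atp5a1 at 37.8, 29.4 and 31.5 TPM.

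The c-ring, which protons turn, is built from identical mature proteins made by Atp5g1, Atp5g2 and Atp5g3, which differ in the import peptide that is cut off. In the main tables Atp5g3 was the highest in every library at 11.3, 9.57 and 9.57 TPM and alone was above 1 TPM. Atp5g2 had 0.69, 1.06 and 1.20 TPM. That value is uncertain, since the copy Gm10175, identical over 645 bases, was at 7.35, 6.79 and 10.4 TPM. With the older annotation GENCODE M4, Atp5g2 had 4.55, 4.92 and 8.01 TPM and Atp5g3 11.4, 9.63 and 9.70 TPM. Atp5g1 had 3.29, 0.15 and 2.79 TPM from 233, 62 and 105 counts. Library 2 was low for Atp5g1, which was not called against 1 TPM (edgeR adjusted p = 0.154) but was above it without library 2 (0.00292). The counts lay on different transcripts in different libraries. The short transcript of 596 bases had 147, 2.30 and 85.2 expected counts, and the long one of 4715 bases 85.7, 59.7 and 19.8.

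In the peripheral stalk, which holds the F1 part still, Atp5h (subunit d) was the highest at 66.2, 68.2 and 57.0 TPM, followed by Atp5f1 (subunit b) at 47.8, 33.3 and 32.6 TPM. Atp5j, coupling factor 6, had 16.9, 11.7 and 20.4 TPM, and its call above 10 TPM was lost without library 1 (adjusted p = 0.0942) or library 3 (0.0563). Atp5o, the subunit that confers oligomycin sensitivity, had 15.6, 13.5 and 9.83 TPM and was called above 10 TPM only without library 3 (0.0344). The second Atp5o entry had 0 counts in every library. Of the small membrane subunits, some of which help pair the enzyme into dimers, Atp5mpl was the highest at 55.7, 40.6 and 29.7 TPM and Atp5j2 the lowest at 13.8, 9.13 and 9.72 TPM. Atp5k (subunit e) had 24.1, 22.8 and 12.3 TPM and Atp5l (subunit g) 23.9, 17.9 and 13.3 TPM. Both lost the call above 10 TPM without library 1 (0.0853 and 0.0927). All 4 were highest in library 1. Atp5s, also called factor B, had 0.52, 0.10 and 1.23 TPM and was not called against 1 TPM.

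Ordered by median within a library, Cox7a2l and the F1 part took the first 2 places in all 3 libraries, widely expressed complex IV subunits the third, and complex II the sixth. The peripheral stalk and the small membrane subunits shared places 4 and 5. The stalk median counts the second Atp5o entry, which was at 0 in every library. Without that entry the stalk median would be higher, so the order within places 3 to 5 depends on it. Complex I core and accessory subunits, complex III and cytochrome c lay within places 7 to 10 in changing order, and their medians of 8.89 ± 2.48, 9.98 ± 0.687, 9.11 ± 0.915 and 9.84 ± 0.632 TPM did not differ beyond their spread. The c-ring, complex I assembly factors, Atp5s and the restricted isoforms took the last 4 places.

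Near-identical gene copies limit how well some members can be counted. By BLAST, 26 of the 96 members had a gene elsewhere with at least 95% identity over at least 50% of the shorter transcript, 54 such relatives in all, mostly processed pseudogenes. For 14 of the 26 these relatives held under 1% of the summed TPM of the family, and for 7 they held at least 10%. Atp5g2 shared 645 bases at 100% identity with Gm10175, a transcribed processed pseudogene at 7.35, 6.79 and 10.4 TPM, and its relatives held 89.3% of the family. Ndufb4 shared 390 bases at 100% with Ndufb4c, at 18.4, 16.1 and 16.4 TPM (88.3%). Atp5l shared 309 bases at 100% with Gm10221, at 46.5, 38.0 and 34.7 TPM (69.2% over all its relatives). The values of these 3 are therefore uncertain, since the counting could have split their reads in another way. The shares were 45.1% for Cycs, 28.4% for Cox7c, 21.6% for Ndufa12 and 15.7% for Ndufab1. For Cox7c the copy Gm12338 had 1.53, 9.97 and 17.0 TPM, lowest in library 1, where Cox7c itself was highest at 34.1, 23.6 and 22.1 TPM.

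These shares moved with the deposited table. In the tables built on the older annotation GENCODE M4, relatives held 32.2% for Atp5g2 and 96.6% for Atp5l, and in the transcript tables made directly from the reads 78.9% and 65.1%. For Ndufb4 the shares were 91.5% and 82.7%. Between the 2 annotations, 5 of 84 members with a mean of 1 TPM or more were at least 1.5-fold lower with M4 and 0 were higher, while 10.4% of protein-coding genes were lower and 0.861% higher. The 5 were Atp5l, Ndufa11, Ndufs4, Ndufaf7 and Ndufs8. Atp5l had 1.27, 1.39 and 1.59 TPM with M4. Ndufa11 had 1.26, 0.91 and 1.13 TPM with M4, against 9.57, 6.25 and 7.65 TPM with M21. In the tables made from the reads the median ratio to the main table was 1.69 for members and 1.92 for protein-coding genes. Uqcrq stood out there at 8.35, 5.66 and 7.74 TPM.

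**Figure D4:**
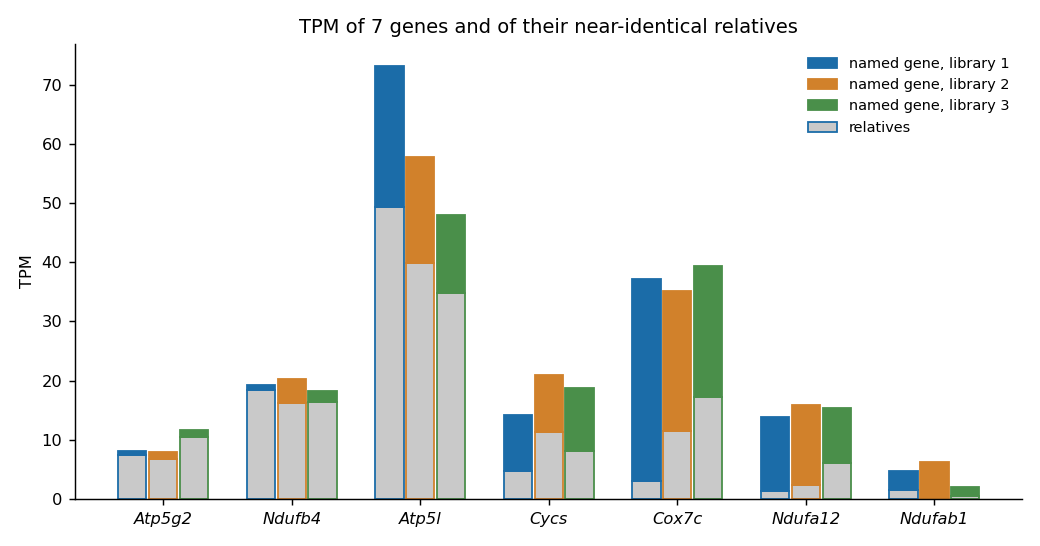
For the 7 members whose near-identical relatives hold at least 10% of the family TPM, each bar stacks the TPM of the named gene (coloured by library) on that of its relatives (grey) in the main tables. Relatives make up most of the bar for Atp5g2 (89.3% of the means), Ndufb4 (88.3%) and Atp5l (69.2%), and for Cox7c the grey part is 2.99, 11.5 and 17.2 TPM.

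Not all of a member's level came from transcripts annotated as protein-coding. Over all members such transcripts held 83.1%, 80.8% and 82.0% of TPM, and transcripts with a retained intron 6.57%, 9.35% and 7.38%. The median member with 1 TPM or more had 92.0% in protein-coding transcripts, with 44 of 84 at 90% or more and 13 under 50%. For Ndufa10, an accessory subunit, retained-intron transcripts held 47.6%, 60.5% and 39.0%. Atp5b had 54.1%, 43.5% and 37.0% in its 1 protein-coding transcript, at 34.1, 29.0 and 29.1 TPM. A processed transcript of Atp5b of 478 bases had 18.6, 24.4 and 29.4 TPM, highest in library 3.

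Members varied between libraries about as much as other genes. Among the 84 members with a mean of 1 TPM or more the median coefficient of variation was 21.6%, and among 8302 protein-coding genes with that mean it was 24.5%. After each library was centred on its median protein-coding gene the order turned round, to 24.3% and 22.1%. The widest relative spreads in members of 1 TPM or more included Atp5g1 at 81.2%, Ndufb4 at 72.6%, Ndufb2 at 64.0% and Ndufab1 at 63.0%.

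Relative to the median protein-coding gene, most members were lower in library 3 than in libraries 1 and 2. Differences were taken in log2(TPM + 0.1) minus the median over protein-coding genes, which was itself shifted by -0.16 between libraries 2 and 1, 0.21 between 3 and 1, and 0.37 between 3 and 2. For libraries 3 and 1 the median member stood at -0.42, with 25 members higher and 59 lower, and for libraries 3 and 2 at -0.31, with 22 higher and 62 lower. For libraries 2 and 1 it stood at -0.05, with 37 higher and 47 lower. A difference over 1 in size was reached for libraries 3 and 1 by 0 members upward and 9 downward (10.7% of 84), where 6.96% and 5.36% of protein-coding genes did. Between library 3 and library 2 it was 2 upward and 7 downward, where 6.94% and 5.53% did, and between library 2 and library 1 it was 5 and 3, where 3.18% and 3.23% did. Single libraries stand on each side, so there is no replicate check.

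Transcript length moved with this difference. Members are short, with a median effective length of 555 bases, against 2068 bases in protein-coding genes, and 83.3% of them are under 1000 bases, against 16.1%. The 1335 protein-coding genes under 1000 bases had median differences of -0.01, -0.32 and -0.27 for libraries 2 minus 1, 3 minus 1 and 3 minus 2. A difference over 1 in size was reached by 11.7%, 20.7% and 19.3% of these short genes, against 9.52%, 10.7% and 10.7% of members. Centred on those short genes, the median member stood at -0.10 for libraries 3 and 1 and at -0.043 for libraries 3 and 2. With that centring 3 members passed 1 upward and 3 downward for libraries 3 and 1, and 2 and 3 for libraries 3 and 2. Fragment sizes in the labels were 200 to 594, 200 to 491 and 200 to 1000 base pairs. The cell markers given above also moved with library 3. The part of the fragment sizes and of the marked cells in the result was not tested.

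By role, the 4 small membrane subunits of ATP synthase had the lowest median difference between library 3 and library 1, at -1.08, with all 4 lower. The 5 genes of the F1 part had a median of 0.11, and the 11 complex IV subunits -0.28. Relative to the median protein-coding gene, the 9 complex III genes were all lower in library 3 than in library 2, by a median of -0.38. In TPM without that centring, Uqcrb, Uqcrc1, Uqcr10 and Uqcr11 were higher in library 3 and the other complex III genes lower. The members furthest down between library 3 and library 1 were Cox7a2 at -1.44, Ndufb2 at -1.41 and Ndufb6 at -1.40. Ndufb6, a membrane arm subunit, had 4.73, 4.62 and 2.02 TPM. The members furthest up were Ndufb4 at 0.81, Atp5e at 0.78 and Cyc1 at 0.77. Between library 2 and library 1, Atp5g1 was furthest down at -3.60 and Ndufb4 furthest up at 2.28. Both are members named above for a low or uncertain count.

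**Figure D5:**
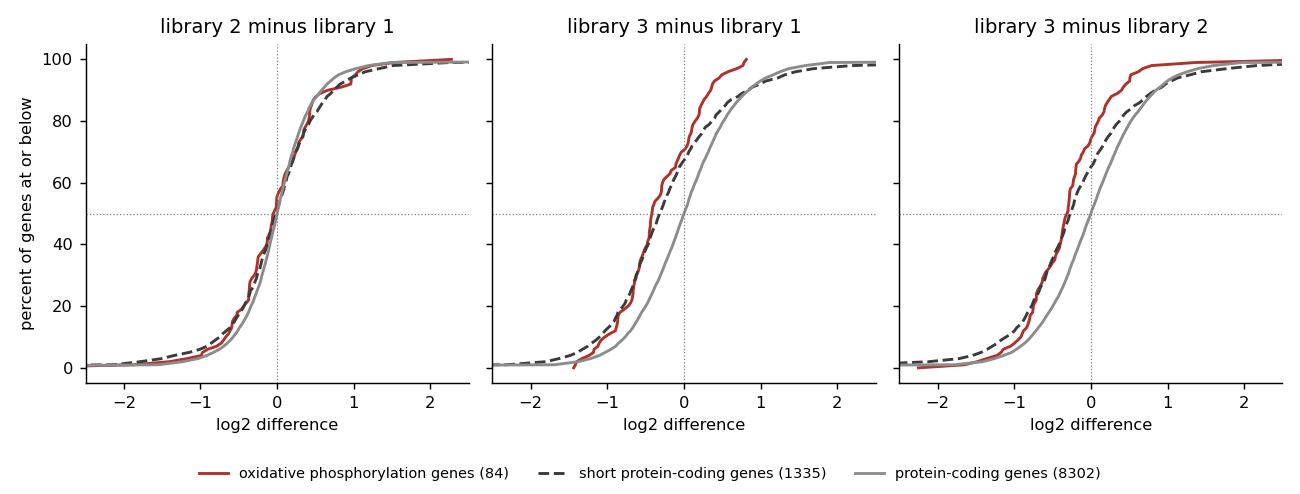
Cumulative percent of genes against the log2 difference between 2 libraries, after the median protein-coding gene is set to 0, for the 84 members (red), 1335 short protein-coding genes (dashed) and 8302 protein-coding genes (grey). Members lie to the left of the protein-coding genes at the median where library 3 is compared with library 1 or library 2, with medians of -0.42 and -0.31, and close to them between libraries 2 and 1, with a median of -0.05.

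Genes that work with these subunits were set beside them from lists of known function. Of all protein-coding genes tested, 54% were above 1 TPM and 6.03% below. Of 32 tested assembly factors of complexes II to V, 18 were above 1 TPM and 0 below, and 14 were not called. Cox17, the copper carrier for complex IV, was the highest at 32.8, 36.5 and 53.5 TPM. Of 7 other complex I assembly factors 3 were above 1 TPM, with Foxred1 highest at 3.46, 3.95 and 5.12 TPM. Genes of ATP and phosphate exchange (Slc25a3, Slc25a4, Slc25a5, Vdac1, Vdac2 and Vdac3) were above 1 TPM in 6 of 6 tested. Slc25a5, the ADP and ATP exchanger, was at 63.6, 60.1 and 38.5 TPM, while Slc25a31, a germ cell form, had 0 counts and was not tested. Citric acid cycle enzymes, which supply the electrons, were above 1 TPM in 13 of 13, with Dlst highest at 32.6 ± 3.39 TPM (SD, n = 3).

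Among 12 nuclear regulators of respiratory genes 7 were above 1 TPM and 1 below, beside 54% and 6.03% of tested protein-coding genes. Tfam, which packs and transcribes mitochondrial DNA, had 14.1, 8.34 and 7.82 TPM, Nrf1 8.24, 4.72 and 10.5 TPM, Gabpa 8.85, 9.54 and 7.78 TPM and Yy1 6.39, 4.82 and 6.21 TPM. Ppargc1a, the coactivator PGC-1 alpha known from muscle and brown fat, was the 1 below 1 TPM, at 0.04, 0.07 and 0.13 TPM. Its relative Ppargc1b had 0, 0 and 0.12 TPM. Of 12 tested genes of the 13 mitochondrially encoded subunits, 11 were above 1 TPM. They were at very uneven levels, with mt-Co1 at 472, 540 and 567 TPM and mt-Co3 at 0.10, 0.10 and 0.05 TPM. Single libraries decided others: mt-Atp6 was listed at 0, 0 and 59.6 TPM and mt-Nd4l at 0, 33.6 and 0 TPM. Ratios of nuclear to mitochondrial subunits were therefore not formed.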

How the data were processed

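Total RNA was measured in 3 libraries of mouse monocytes. The input was 100 ng of RNA per library, from which ribosomal RNA was removed before a ScriptSeq preparation, per the labels' protocols. The deposited gene tables give expected counts and TPM per gene, made by the authors on mm10 with GENCODE M21 and, in a second set, M4 annotation, from alignments to the transcriptome, per the submitters' notes that accompany the files. A further deposited transcript table per library, in TPM and expected counts, was made directly from the reads. The programs, their versions and the strand setting were not given in the sources used here, so overlapping and antisense genes cannot be told apart.

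The M21 gene tables were the main source. Expected counts were rounded, and a gene entered the test with 10 or more counts over the 3 libraries. Each gene was tested against 1 TPM and 10 TPM with edgeR (4.0.16, R 4.3.3): an intercept-only quasi-likelihood fit whose offset is the log of the counts that the level stands for in that gene and library, 2-sided, with Benjamini-Hochberg adjustment over all 17664 genes tested. Adjusted p-values in the text are from that test unless another is named. The test was checked on simulated counts. Differences between isoforms or libraries used log2(TPM + 0.1), which understates changes of low genes. Near-identical transcripts were found with BLAST+ (2.17.0). Promoter windows are from RefSeq, GRCm38.p6.

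The members, role groups, pathway lists and markers were chosen with earlier results of these data known. Genes named with values in every library were the highest and lowest of each role group, all isoforms compared, all members with a mean under 1 TPM, the 3 largest rises and falls between libraries 3 and 1, and members whose call changed when a library was left out. The values of 1 member that this rule names are not reported here. Others were named for their role or after their values were seen. Alternatives were limma (3.58.1) on log2(TPM + 0.1) and log2(TPM + 1), DESeq2 (1.42.0), TMM scaling, other count minimums, a protein-coding TPM scale, the M4 tables, the tables made from the reads, and leaving out each library. Floors cover counting error only.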

Additional observations from a re-analysis of the deposited data

Results flagged for a closer look

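Of the 13 genes that matched the family by symbol but hold no protein-coding transcript, and so entered no comparison of members, 3 had a level above the limit that a count of 0 allows. Ndufb4c, a processed pseudogene on chromosome 15, averaged 17.0 TPM and was above that limit in 3 libraries, at 18.4, 16.1 and 16.4 TPM. This is the copy that shares 390 bases at 100% identity with Ndufb4, which averaged 2.26 TPM. Ndufb1-ps, annotated as a long noncoding RNA from a bidirectional promoter on chromosome 12, averaged 10.9 TPM and was above the limit in 3 libraries, at 14.8, 11.8 and 6.18 TPM. Atp5l-ps1, a processed pseudogene on chromosome 7, averaged 0.487 TPM and was above the limit in 1 library, with 0.08, 1.38 and 0 TPM. Ndufb4c and Atp5l-ps1 were among the near-identical relatives found by BLAST, of Ndufb4 and Atp5l. For them the counting may have shared out reads with the member, which was not tested beyond the family shares given above. Ndufb1-ps was not among the relatives of any member by that rule, so no family share covers it.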

How the results depend on the processing

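No paired analysis was possible because the series holds 1 group, so replicate numbers pair no samples. The count of members above 1 TPM (77) was 73 with DESeq2, where Ndufa8, Ndufb4, Sdhc and Ndufaf8 lost the call, and 76 to 77 when a library was left out. The count below 1 TPM (0) was 1 with limma at either pseudocount. The count above 10 TPM (32) was 77 on the protein-coding TPM scale, 52 with the tables made from the reads and 24 to 33 when a library was left out. It was 24 with DESeq2. The median level of all 96 members (9.71 TPM) was 6.27 as a geometric mean, 16.0 with the tables made from the reads, 11.1 over members with a mean of 1 TPM or more, and 9.26 to 9.97 when a library was left out. The share of protein-coding TPM (1.30%) was 0.493% in expected counts, 1.17% with the tables made from the reads, and 1.26% to 1.35% when a library was left out. The median difference of members was -0.10 (log2) between libraries 3 and 1 and -0.043 between libraries 3 and 2 after centring on short protein-coding genes. The 10 isoform pairs with the first gene lower stayed at 10 when any library was left out.

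On the protein-coding scale 10 TPM is a lower bar, and 12 members turned from below to above it, with a log2 level over 10 TPM of 2.65 for Ndufa9, 1.71 for Atp5d, 2.01 for Cyc1, 1.10 for Ndufb4, 2.29 for Ndufaf7, 2.02 for Ndufb3, 1.53 for Ndufa8, 1.79 for Ndufab1 and Ndufb6, 1.33 for Sdhc, 1.73 for Ndufs8 and 1.41 for Ndufaf8. With the M4 tables the level against 10 TPM turned to -0.53 for Ndufs4 and -2.83 for Atp5l, and the cause was not tested. Atp5g1 minus Atp5g2 was -2.08 with M4, -0.37 with the tables made from the reads, and -0.53 to 1.63 when a library was left out, with -0.06 without library 3. The cause was not tested. Of 2108 member calls compared under all alternatives, 1916 stayed the same, 108 gained a call, 70 lost it and 14 turned. Those that stayed the same include members called on neither side in both, whose level may have crossed the threshold. The 14 are those just given for Ndufs4, Atp5l and the 12 members on the protein-coding scale. Depth limits genes of a few counts such as Cox6a2, Cox6b2 and the isoforms at 0.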
